A study of Caenorhabditis elegans with 6 samples.

Results

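A set of 10 genes of the Caenorhabditis elegans eggshell and oocyte surface were followed in whole worms exposed to diazinon (DZN), an insecticide of the organophosphorus class that acts on acetylcholinesterase, and in control worms. The genes were grouped by the known roles of their products, without a rule on their measured values, although earlier results of these data were known when they were chosen: cbd-1 (H02I12.1), perm-2 (C44B12.1) and perm-4 (C44B12.5) of the vitelline layer, the chitin synthase chs-1 (T25G3.2), the chondroitin proteoglycans cpg-1 (C07G2.1), cpg-2 (B0280.5) and cpg-3 (R06C7.4), the oocyte membrane proteins egg-1 (B0244.8) and egg-2 (R01H2.3), and the yolk receptor rme-2 (T11F8.3). They were read by 11 of the 22490 worm probes on the arrays, 1 probe each and 2 for egg-2, among 17922 genes with a current symbol. The worms were of the wild type strain N2. Eggs were put on dishes with DZN in acetone, or with acetone alone for the control, and the worms grown from them were taken after 72 h at 16 °C. Both groups are pooled whole animals, so a value is an average over all tissues, and fewer cells of a type and less RNA per cell cannot be told apart. The stage is given as L3/L4 larvae in one place of the labels and as L3 in another, and the dose as 1 mg/ml or 0.5 mg/ml or, in the methods, per litre, so neither is settled here. Each of 6 two-colour arrays compared 1 DZN extract with 1 control extract. DZN carried Cy5 on the arrays called DZN-Cy5 replicates 1 to 3 and Cy3 on the arrays called DZN-Cy3 replicates 1 to 3.

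The C. elegans eggshell is laid down in layers around the egg after fertilization. The outer vitelline layer is assembled on the oocyte while it is still in the gonad, a chitin layer forms beneath it when the egg is activated by the sperm, and an inner layer rich in chondroitin proteoglycans follows, above a lipid barrier that makes the embryo impermeable. The transcripts of these genes are made mainly in the female germline and in growing oocytes, which also take up yolk from the body cavity through a receptor on their surface. They are therefore transcripts of the oocyte-making gonad in a sample of whole worms.

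The arrays differed in brightness. Spots more than 2 SD brighter than the average local background were taken as above background, and the share of worm probes that met this per channel ran from 49.7% to 81.4%. The share was 49.7% to 66.2% on the DZN-Cy5 arrays and 63.3% to 81.4% on the DZN-Cy3 arrays, so that effects of brightness cannot be told apart from those of the dye. The lowest shares of either treatment were on DZN-Cy5 replicate 2, with 49.7% in the control channel and 60.2% in the DZN channel, and this array stood apart in the levels of several eggshell genes described below. The header of each array also gave a photomultiplier setting, which was higher for Cy5 on replicate number 3 of either dye orientation and higher for Cy3 on DZN-Cy3 replicates 1 and 2. Of 11 listed regulators of oocytes and early embryos 10 had a probe, and all 10 were above background on at least 6 of the 12 channels. The same held for all 13 germline, 4 muscle and 5 neuron markers and for 9 of 10 sperm markers. The count therefore does not single out oocytes.

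The question put to the arrays was whether DZN altered the transcript levels of these genes. None of the 10 eggshell and oocyte surface genes passed the test. Fitted log2 ratios of DZN over control ran from -0.48 for perm-2 to 0.21 for cpg-1, with 7 genes below 0 and 3 above, while 49.2% of all worm probes lay below 0. Their median was -0.10, against 0.00 over all probes and -0.01 over all genes. Adjusted p-values from limma, taken over all worm probes, were 0.461 to 0.992. Over the whole array the same test called 4 probes, or 0.0178% of those tested, so a list of 10 genes would hold no call at that background. At an unadjusted p under 0.05, which 10.9% of all probes reached, 0 of the 10 genes were found, and cpg-3 was nearest. Rank products, the kind of test used by the study, called 1.16% of all probes, 0.525% higher and 0.64% lower, and none of the 10 genes. The smallest percentage of false positives among them was 0.171, for a lower level of perm-2.

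**Figure D1:**
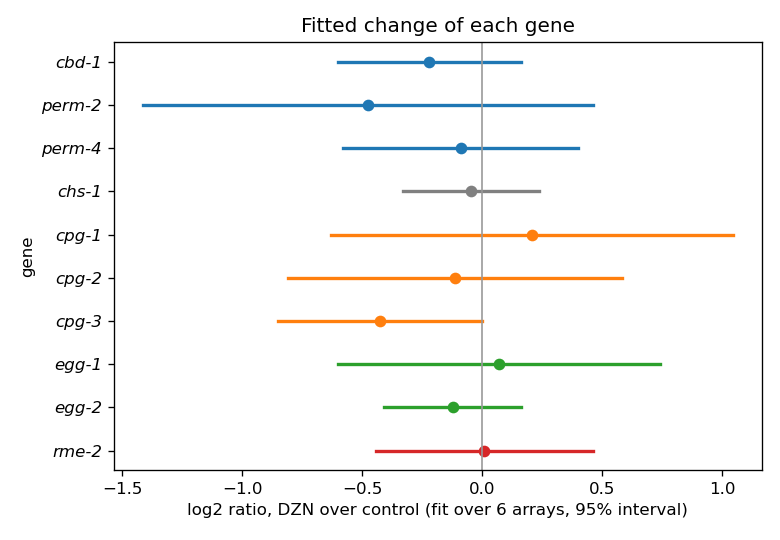
Fitted log2 ratio of DZN over control for each of the 10 genes, brightest probe, on the horizontal axis, with its 95% interval over 6 arrays from limma; colours mark the vitelline layer, chitin synthase, chondroitin proteoglycans, oocyte membrane proteins and yolk receptor. Every interval reaches 0, the widest being that of perm-2 from -1.41 to 0.46 and the narrowest that of chs-1 from -0.33 to 0.24.

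A missed threshold does not show that levels were equal, and the intervals state what the arrays could bound. For perm-2 the 95% interval allowed DZN levels between 0.376 and 1.38 times the control, and for cpg-1 between 0.647 and 2.06 times. For egg-2 and cbd-1 it allowed 0.753 to 1.12 and 0.659 to 1.12 times the control.

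Control and DZN channels overlapped for all 10 genes, as they did for all but 0.0978% of the probes on the array. No gene had ratios of a single sign on all 6 arrays, which 5.17% of probes had. The levels below are log2 intensities after normalization between arrays, and a level of one gene cannot be set against that of another because each probe has its own brightness.

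The vitelline layer is the first coat of the oocyte. CBD-1, a protein with chitin-binding domains, is needed to assemble it and to hold the egg activation proteins at the oocyte surface. The control levels of cbd-1 had a lowest value of 9.24, a median of 10.17 and a highest of 11.77, and the DZN levels had 8.71, 10.18 and 11.12. The medians were nearly equal and the ranges overlapped, with the DZN range lying somewhat lower. Its ratios, in the order of replicates 1 to 3, were -0.11, -0.06 and 0.99 with DZN in Cy5 and -0.53, -0.64 and -0.97 with DZN in Cy3, so that all the DZN-Cy3 arrays were lower with DZN while the DZN-Cy5 arrays were near 0 or higher. The fitted ratio was -0.22 ± 0.16 (SE, adjusted p = 0.656 from limma). The difference between the dye orientations, DZN-Cy5 less DZN-Cy3, was 0.99 ± 0.33 and did not pass either (adjusted p = 0.356), although no other of the 10 genes had a smaller adjusted p for it.

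PERM-2 and PERM-4 are proteins of the vitelline layer whose loss leaves the eggshell permeable. Their genes are neighbours on the genome with 0 protein-coding genes between them. For perm-2 the control levels were 8.63 at the lowest, 10.37 at the median and 11.62 at the highest, and the DZN levels 8.16, 9.73 and 11.32. The ranges overlapped, with the DZN range lying lower at either end. On DZN-Cy3 replicates 1 and 2 the ratio of perm-2 was -2.44 and -1.70, the lowest values of any of the 10 genes on those arrays. It was -0.69 on DZN-Cy5 replicate 1 but 0.38, 0.80 and 0.80 on the remaining arrays. Low and high arrays thus stood on opposite sides of 0, and the fitted ratio of -0.48 ± 0.40 had the widest interval of the set (adjusted p = 0.695).

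For perm-4 the control levels were 7.87 at the lowest, 11.77 at the median and 12.83 at the highest, and the DZN levels 8.35, 11.85 and 12.24. Both lowest values came from DZN-Cy5 replicate 2, where the control spot had a foreground of 167 over a background of 153, against foregrounds of 1725 to 20209 on the remaining arrays. The ratios of perm-4 were -0.17, 0.48 and 0.50 on the DZN-Cy5 arrays and -1.14, -0.66 and 0.46 on the DZN-Cy3 arrays. The order of the arrays was close to that of perm-2, at a smaller size. The fitted ratio was -0.09 ± 0.21 (adjusted p = 0.906).

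CHS-1 is the chitin synthase of the eggshell. Its probe was above background on 1 of 12 channels, the control channel of DZN-Cy3 replicate 1, and on no DZN channel. The log2 levels, with medians of 6.46 in control and 6.33 with DZN, were therefore not well above background, and the control gave no bound on a fold (a log2 bound of -0.18). The fitted ratio of -0.05 ± 0.12 describes background as much as transcript, and its narrow interval is no measure of chs-1. CHS-2, the chitin synthase of the pharynx, had a probe above background on all 12 channels and a fitted ratio of -0.11 ± 0.14 (adjusted p = 0.801).

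CPG-1 and CPG-2 are chitin-binding chondroitin proteoglycans with overlapping function in the inner part of the eggshell. For cpg-1 the control levels were 9.09 at the lowest, 10.93 at the median and 12.07 at the highest, and the DZN levels 9.97, 10.70 and 13.45. The highest DZN level lay above all control levels and came from DZN-Cy5 replicate 3, where the ratio was 2.12, the highest ratio of any of the 10 genes on any array. The other ratios of cpg-1 were -0.05 and 0.22 on DZN-Cy5 replicates 1 and 2 and -1.28, -0.73 and 0.95 on the DZN-Cy3 arrays. High and low arrays lay on opposite sides of 0, and the fitted ratio was 0.21 ± 0.36 (adjusted p = 0.865). For cpg-2 the control levels were 7.22, 10.27 and 11.53 at the lowest, median and highest, and the DZN levels 7.48, 10.31 and 10.83. Both lowest levels again came from DZN-Cy5 replicate 2, where neither channel was above background. The ratios of cpg-2 were -0.41, 0.26 and 0.72 on the DZN-Cy5 arrays and -1.49, -0.70 and 0.93 on the DZN-Cy3 arrays, and the fitted ratio was -0.11 ± 0.30 (adjusted p = 0.917).

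CPG-3 is a further chondroitin proteoglycan of the embryo. The control levels of cpg-3 were 6.39, 8.25 and 9.15 at the lowest, median and highest, and the DZN levels 6.14, 7.89 and 8.35. The DZN channel was the lower on 4 of 6 arrays, with ratios of -0.64 and -0.24 on DZN-Cy5 replicates 1 and 2 and -1.14 and -0.81 on DZN-Cy3 replicates 1 and 2. It was 0.19 and 0.09 on replicate number 3 of the dye orientations. The fitted ratio was -0.42 ± 0.18 with a 95% interval from -0.85 to 0.00, and its adjusted p of 0.461 was the smallest of the 10 genes. On DZN-Cy5 replicate 2 neither channel of cpg-3 was above background.

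EGG-1 and EGG-2 are related membrane proteins of the oocyte with low-density lipoprotein receptor repeats that are needed for the sperm to fertilize the egg. For egg-1 the control levels were 7.77, 9.26 and 10.02 at the lowest, median and highest, and the DZN levels 7.79, 9.07 and 10.82. The ratio on DZN-Cy5 replicate 3 was 1.94, and the DZN channel there was the highest of all. Elsewhere the ratios were 0.04 and 0.01 on DZN-Cy5 replicates 1 and 2 and -1.07, -0.76 and 0.25 on the DZN-Cy3 arrays. Without the single high array the values would centre below 0, and the fit gave 0.07 ± 0.29 with all 6 (adjusted p = 0.952) and -0.25 without DZN-Cy5 replicate 3.

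The brighter of the egg-2 probes was above background on all 12 channels and its ratio varied least between arrays among the genes above background. Its control levels were 7.81, 8.40 and 10.10 at the lowest, median and highest, and its DZN levels 7.97, 8.23 and 9.79. The highest of either came from DZN-Cy5 replicate 2, the array on which perm-4, cpg-2, cpg-3 and egg-1 were lowest. The ratios of this probe were -0.14, -0.30 and 0.37 on the DZN-Cy5 arrays and -0.39, -0.27 and -0.01 on the DZN-Cy3 arrays, with a fitted ratio of -0.12 ± 0.12 (adjusted p = 0.741). The dimmer egg-2 probe, above background on 5 of 12 channels, gave -0.04 ± 0.16 (adjusted p = 0.948). The probes had the same sign on 5 of 6 arrays.

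RME-2 is the yolk receptor of the oocyte, also of the low-density lipoprotein receptor family. Its control levels were 8.03, 8.30 and 10.06 at the lowest, median and highest, and its DZN levels 7.83, 8.44 and 9.42. The ratios of rme-2 were -0.25, 0.35 and 1.03 on the DZN-Cy5 arrays and -0.68, -0.64 and 0.24 on the DZN-Cy3 arrays. These fell on either side of 0 in equal number, and the fitted ratio was 0.01 ± 0.19 (adjusted p = 0.992). The ligands of this receptor, the 6 vitellogenins, had a median ratio of -1.64, with standard errors of 0.25 for vit-1 to 0.82 for vit-5. Rank products called all 6 lower, against 0.64% of all probes, while limma called none. The interval of the receptor, -0.44 to 0.46, did not reach the size of that median, but the difference between receptor and ligands was not tested.

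**Figure D2:**
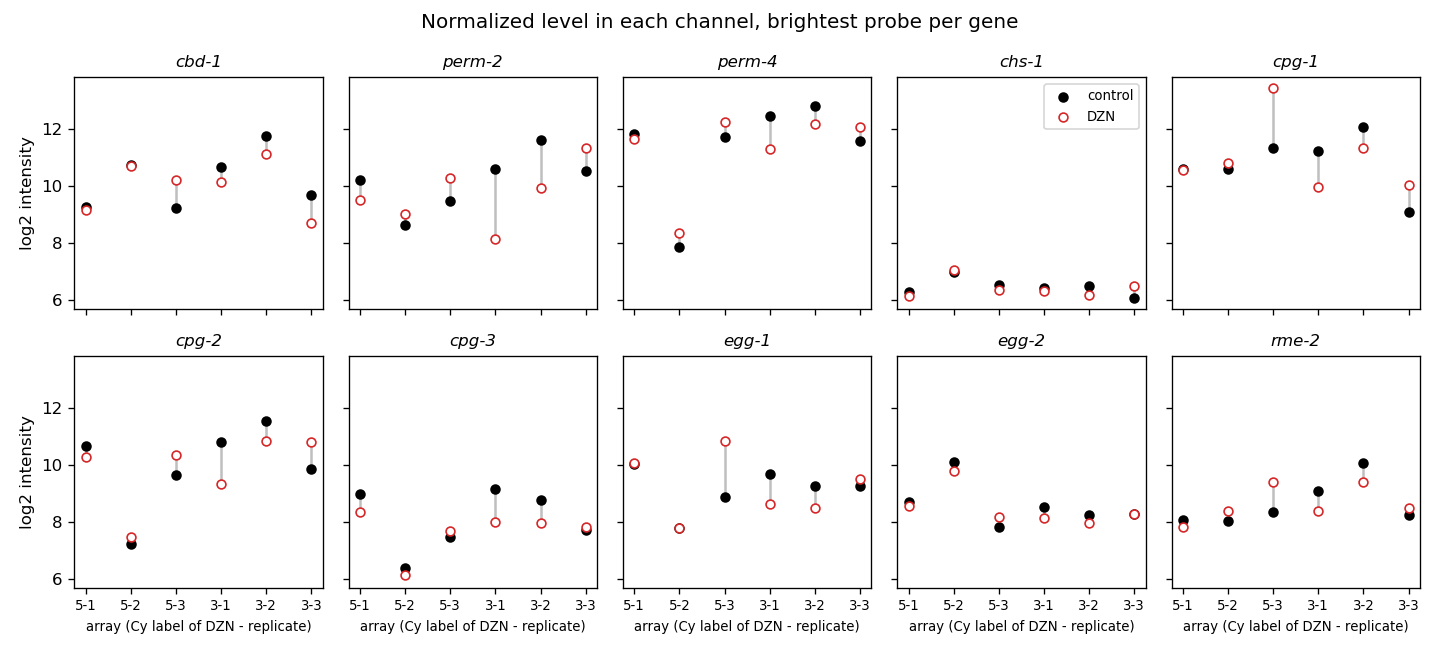
Normalized log2 intensity of each of the 10 genes in the control channel (filled black) and DZN channel (open red) of each array, joined by a grey line; arrays run from DZN-Cy5 replicate 1 (5-1) to DZN-Cy3 replicate 3 (3-3). On array 5-2 perm-4, cpg-2 and cpg-3 drop in both channels, perm-4 to 7.87 and 8.35 against medians of 11.77 and 11.85, while chs-1 stays near background on all arrays.

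Without DZN-Cy5 replicate 2 the median over the 10 genes was -0.11, no gene changed the sign of its fitted ratio and none passed the test. Of the single genes, cpg-1 moved from 0.21 to 0.34 and egg-1 from 0.07 to 0.23. Likewise cbd-1 moved from -0.22 to -0.14, egg-2 from -0.12 to -0.05, perm-4 from -0.09 to -0.14, chs-1 from -0.05 to -0.08 and rme-2 from 0.0079 to 0.014.

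Most of the 10 genes moved together from array to array, with chs-1, at background, and cbd-1 as partial exceptions. On DZN-Cy3 replicates 1 and 2 all 10 ratios were below 0, with medians of -1.10 and -0.68. On DZN-Cy5 replicate 3 the ratios of 9 genes were above 0, chs-1 being the exception, with a median of 0.76. On DZN-Cy3 replicate 3 the ratios of 8 genes were above 0, cbd-1 and egg-2 being the exceptions, with a median of 0.34. DZN-Cy5 replicates 1 and 2 lay between, with medians of -0.16 and 0.13. The median over all genes was between -0.04 and 0.00 on every array.

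**Figure D3:**
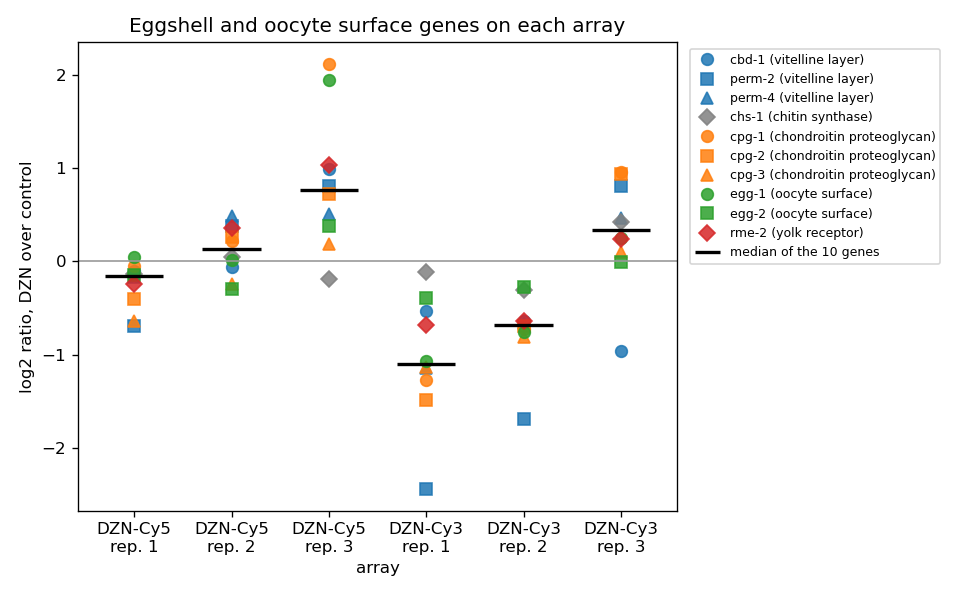
Log2 ratio of DZN over control on each of the 6 arrays for the 10 genes, coloured by role, with the median of the 10 as a black bar. The medians are -1.10 and -0.68 on DZN-Cy3 replicates 1 and 2 and 0.76 and 0.34 on DZN-Cy5 and DZN-Cy3 replicate 3.

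The lowest ratio fell on DZN-Cy3 replicate 1 for 8 of the 10 genes, and the highest on DZN-Cy5 replicate 3 for 7 and on DZN-Cy3 replicate 3 for 3. Over the 6 arrays the Pearson correlation of the ratios of 2 genes was 0.30 to 0.99 with a median of 0.87 among the 36 pairs without chs-1, the lowest value being that of cbd-1 with cpg-2, and it was -0.43 to 0.58 for chs-1 with the other genes. Among the pairs, the neighbours perm-2 and perm-4 reached 0.99, as did cpg-2 with cpg-3, while cpg-1 with egg-1 reached 0.97. Ratios from the same array share both extracts and the dyes, so these correlations over 6 points are given as a description.

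The spread over arrays was wide for this set. After the fit the residual SD of the log2 ratio had a median of 0.61 over the 10 genes against 0.33 over all genes, and 8 of the 10 were above the median of all genes. The SD of perm-2 stood at percentile 99 of all genes, that of cpg-1 at 98, of cpg-2 at 97 and of egg-1 at 96. The SD of egg-2 stood at percentile 40 and that of chs-1, which measured background, at 39. The wide intervals of perm-2 and cpg-1 follow from this spread between replicate arrays.

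The dye orientations were compared next. The ratio was higher on the DZN-Cy5 than on the DZN-Cy3 arrays for 9 of the 10 genes, but 0 of them passed the limma test of that difference, as did 0.0% of all probes, with adjusted p-values of 0.356 to 0.906.

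The array pattern ran alongside the scanner setting of the Cy5 channel, a comparison chosen after the values had been seen. The setting was 48 on 4 arrays and 50 on the other two, replicate number 3 of each dye orientation, so setting and replicate number cannot be told apart. The median over the 10 genes of the mean ratio was -0.41 at 48 and 0.56 at 50. The mean ratio of cpg-1 was -0.46 at 48 and 1.54 at 50, that of perm-2 was -1.11 and 0.80, and that of egg-1 was -0.44 and 1.10. Added to the fit, the setting passed for none of the 10 genes, as for 0.0% of all probes, the smallest adjusted p being 0.199 for cpg-1 and egg-1 (limma). An unadjusted p under 0.05 from limma was found for 7 of the 10 genes, against 2521 of the 22490 probes. Because the setting was picked after these ratios had been seen, its p-values are no independent test. The Cy3 setting was 50 on 4 arrays and 55 on DZN-Cy3 replicates 1 and 2, where the median of the mean ratios was 0.32 and -0.91.

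Keeping the 4 arrays at the Cy5 setting of 48 leaves out those on which the ratios of the 10 genes were mostly highest, so what they give is a description and no test of DZN. On them all 10 genes had a fitted ratio below 0. The fitted ratio of perm-2 was -1.11 ± 0.21 (adjusted p = 0.0476 from limma) and that of cpg-3 was -0.71 ± 0.13 (adjusted p = 0.0449), values under the threshold that cannot be read as calls. In that fit 3.13% of all probes were under the threshold, 624 of 705 of them lower, which is 2.77% of probes. On the pair of arrays at 50, perm-2 and cpg-3 had mean ratios of 0.80 and 0.14, and a pair of arrays gives no test of its own.

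Lists of other genes of eggshell formation and yolk uptake held no called gene. Of 39 measured genes in 6 lists, 0 passed limma and 0 passed rank products, against 0.0178% and 1.16% of all probes. An unadjusted p under 0.05 from limma was found for 4 of the 39, against 10.9% of all probes. The median ratio of the 39 was -0.02, and 22 were below 0 and 17 above. Nearest to the 10 genes in role is the complex that acts at egg activation, when the kinase MBK-2 is released from the pseudophosphatases EGG-4 and EGG-5 and their anchor EGG-3. Its genes egg-3, egg-4, egg-5 and mbk-2 had ratios of -0.15, -0.27, -0.19 and -0.12, all below 0, with none called. In the order of replicates 1 to 3 their medians were -0.23, 0.15 and 0.34 with DZN in Cy5 and -0.54, -0.51 and -0.02 with DZN in Cy3. The lowest arrays and the highest array were those of the eggshell genes, but DZN-Cy3 replicate 3 was not high, and mbk-2 had its lowest ratio of -0.66 on DZN-Cy5 replicate 3.

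The enzymes that make the precursor of chitin had a median of -0.11 over 5 genes, chs-2 included. At its lower end gna-1, a glucosamine phosphate acetyltransferase, had a ratio of -0.60 ± 0.21 and did not pass (adjusted p = 0.383). Unlike the eggshell genes it was 0.41 on DZN-Cy3 replicate 1 and -0.77 on DZN-Cy5 replicate 3. The median of the 5 genes was -0.06 and 0.70 on these arrays, so gna-1 does not stand for the list there. The 9 genes that build chondroitin chains had a median of -0.02, from sqv-4 at -0.49 to mig-22 at 0.30. Of the further chondroitin proteoglycans cpg-4, cpg-8 and cpg-9 were on the arrays, with ratios of 0.11, 0.43 and -0.39. The 9 genes of the lipid permeability barrier had a median of -0.03, from fasn-1 at -0.17 to emb-8 at 0.35, and the 9 genes of yolk endocytosis had a median of 0.07, from rme-1 at -0.08 to dab-1 at 0.29.

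Markers of oocytes, germline and sperm shared the array pattern in part, as did the vitellogenins and the adult cuticle collagen col-19. The 10 regulators of oocytes and early embryos had a median ratio of 0.05 and none was called, with medians for replicates 1 to 3 of -0.12, 0.09 and 1.04 with DZN in Cy5 and -0.69, -0.60 and 0.21 with DZN in Cy3. The summed level of a list is the log2 of its summed linear intensities, in which the brightest genes weigh most. For this list it was 13.14 to 14.14 in the control channels and 12.85 to 14.86 in the DZN channels. The 13 general germline markers had a median of 0.04, with -0.02, 0.20 and 0.76 and then -0.37, -0.20 and -0.03 in the same order, and summed levels of 16.07 to 16.67 in control and 16.05 to 16.68 with DZN. The 10 sperm markers had a median of -0.37, all of them below 0, while limma called none (smallest adjusted p 0.130) and rank products called 2 lower, spe-11 at -1.02 and nspd-10 at -1.29, against 0.64% of all probes. Their array medians were -0.44, -0.21 and 0.33 and then -1.21, -1.06 and -0.31, with summed levels of 13.30 to 14.72 in control and 12.66 to 14.93 with DZN, and spe-38 was above background on no channel. The adult cuticle collagen col-19, the only one of 3 listed that was measured, had a fitted ratio of -0.72 ± 0.58. It was called lower by rank products and not by limma (adjusted p = 0.680). Its ratios were -1.53, 0.47 and 1.67 and then -3.03, -2.81 and 0.91. The vitellogenins had array medians of -3.24, -0.53 and -0.26 and then -4.17, -2.79 and 1.12. On DZN-Cy3 replicate 3, where the eggshell genes had a median of 0.34, they were thus high except for vit-1 at -0.91. The medians of the sperm and germline markers were below 0 on that array. The array medians of 4 muscle markers stayed between -0.12 and 0.15, and those of 5 markers of the somatic gonad between -0.35 and 0.23. The part of these lists in the ratios of the eggshell genes was not tested.

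**Figure D4:**
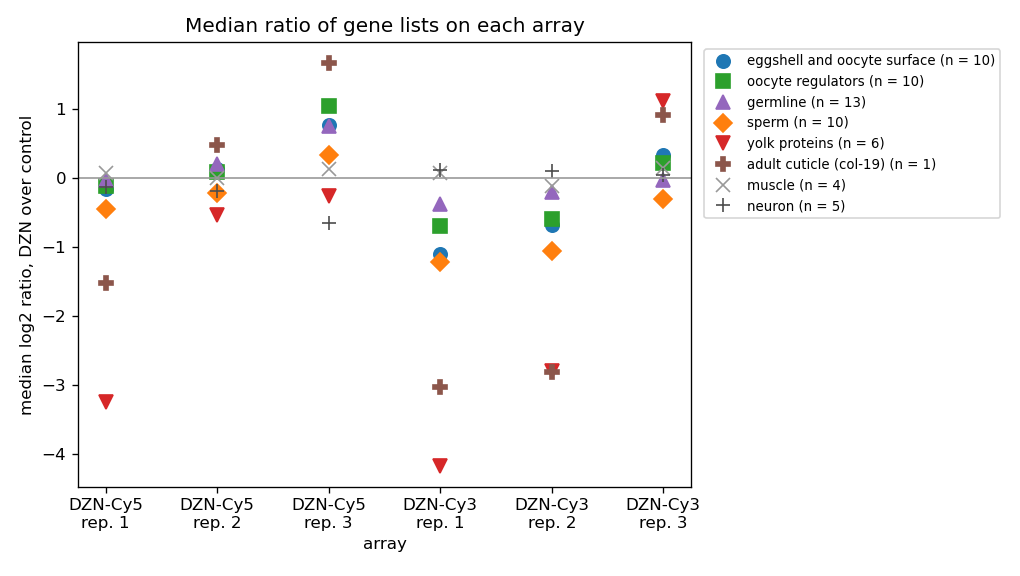
Median log2 ratio of DZN over control on each of the 6 arrays for the 10 eggshell and oocyte surface genes and for marker lists, with the number of measured genes in the key. Oocyte, germline and sperm lists and col-19 are lowest on DZN-Cy3 replicate 1 and highest on DZN-Cy5 replicate 3, as the eggshell genes are. Muscle markers stay between -0.12 and 0.15.

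Genes outside all lists with the ratio pattern most like the mean of the 10 were sought among 8294 genes above background on all 12 channels. The 5 most alike over the 6 arrays were C17F3.1, ufd-1, grl-27, Y37D8A.5 and W09D6.1, with Pearson correlations of 0.991 to 0.996. Their own fitted ratios ranged from -0.98 for grl-27 to 0.31 for ufd-1, and none of them passed the limma test. A correlation above 0.9 was found for 253 genes, or 3.05% of those searched, while the median correlation was -0.17. These points share extracts, dyes and scanner settings, and no p is given for them.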

How the data were processed

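As deposited, the scanner output gives each spot's intensity on a linear scale (foreground and local background, unnormalized), the percent of its pixels that were saturated and a quality score. A series table of log2 ratios made by the authors was compared with these intensities. It followed a loess fit without background correction closely, as DZN over control, with correlations of 0.9997 to 0.99998 over probes, and it served as an alternative. The genome build of the array design is not given in the sources. Names were updated through the RefSeq table of assembly WBcel235, which matched 21413 of 22490 worm probes. No probe or gene sequence was used here.

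Background was corrected by normexp with an offset of 50 on spot means, followed by normalization within arrays by loess and between arrays by Aquantile. Ratios were turned to DZN over control and fitted per probe with dye orientation as a term (lmFit and eBayes, limma 3.58.1, R 4.3.3). The fit had 4 residual degrees of freedom plus 3.56 from the prior. Two-sided p-values were adjusted over all worm probes (Benjamini-Hochberg, threshold 0.05). A ± value is the standard error of limma with n = 6 arrays. The brightest probe stood for a gene. Because the study's rank product package was not used here, rank products were computed from the published definition with 100 permutations (percentage of false positives under 0.05). No spot of the 10 genes had saturated pixels. The number of arrays limits the precision. The methods of the study call the arrays biological replicates.

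All 10 genes are named, as are genes of the other lists that passed a test or lie at the ends of their list, the complex of egg activation, and the 5 most alike genes. The muscle, neuron and other markers are named by list. The members and the lists were chosen with earlier results of these data known. The fit was tested on simulated data. Alternatives covered the background step, normalization, filters, variance model, test, probe choice, each array left out, the replicate block and, chosen after the values were seen, the Cy5 photomultiplier setting.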

Additional observations from a re-analysis of the deposited data

Results flagged for a closer look

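In each of 33 sets of 6 values (the ratios, control levels and DZN levels of the 11 probes) the most distant value was compared with the rest. In 6 sets a value lay far from the others, where chance gives about 1 in 20 for a single set. The sets share spots and arrays, and the share over all probes was not computed, so 6 of 33 is not read as an excess. Of the 6 values, 5 came from DZN-Cy5 replicate 2. On that array perm-4 had a log2 level of 7.87 in the control channel against a median of 11.77 and of 8.35 in the DZN channel against 11.85, so that its ratio of 0.48 was not apart from the rest. The DZN level of cpg-3 there was 6.14 against a median of 7.89, the array on which cpg-3 was not above background. In the opposite direction, the DZN level of chs-1 was 7.05 against 6.33, though not above background, and that of the brighter egg-2 probe was 9.79 against 8.23. The remaining value was the ratio of the dimmer egg-2 probe on DZN-Cy5 replicate 3, which was 0.80 against a median of -0.17.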

How the results depend on the processing

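The 10 genes had no call under any alternative except that 2 of them fell under the threshold on the 4 arrays at the Cy5 setting of 48 alone, which leave out arrays where their ratios were high and so give no test. Their median ratio of -0.10 was -0.14 to -0.02 over the other planned settings, 0.02 with the Cy5 setting as a term, -0.41 at 48 alone, and -0.23 to 0.03 with each array left out, the one value above 0 being without DZN-Cy3 replicate 1. Calls over all worm probes, 4 in the fit reported, were 2 without background correction, 0 with plain subtraction, 30 with median centring, 8 with scale normalization, 14 without dim probes, 0 with robust trended variances, 2 from the deposited table, 262 by rank products, 2 with the Cy5 setting as a term and 705 at 48 alone. With each array left out they were 0 to 132, with 0 when either DZN-Cy5 replicate 1 or DZN-Cy3 replicate 2 was left out, 1 when DZN-Cy5 replicate 3 or DZN-Cy3 replicate 1 was, and 132 without DZN-Cy3 replicate 3. A dye difference was called for 1 of the 10 genes, cbd-1, with median centring (1.57 ± 0.37, adjusted p = 0.0461 from limma). In that setting perm-4, cpg-1, perm-2 and egg-1 had adjusted p-values of 0.053 to 0.066 and the remaining genes 0.088 to 0.55 (limma). The share of all probes called there was not computed, so the call is not read as particular to cbd-1. The sign turned for small ratios. For rme-2 it was -0.058 without background correction, -0.047 with median centring, -0.032 with scale normalization, -0.059 in the deposited table and -0.30 at 48 alone. For cpg-2 it was 0.0096 with offset 0, 0.055 with subtraction and 0.12 with the Cy5 setting as a term, and for perm-4 it was 0.045, 0.078 and 0.054 in that order. For chs-1 it was 0.032 with median centring, for egg-1 -0.0047 with scale normalization and -0.44 at 48 alone, and for cpg-1 -0.46 at 48 alone. With each array left out the ranges that crossed 0 were -0.45 to 0.15 for cpg-2, -0.32 to 0.085 for perm-4, -0.13 to 0.44 for cpg-1, -0.25 to 0.23 for egg-1, -0.15 to 0.16 for rme-2 and -0.15 to 0.030 for chs-1. The causes were not tested. The remaining genes, cbd-1, perm-2, cpg-3 and egg-2, kept their sign throughout.

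Same-numbered arrays of the dye orientations deviated with correlations of 0.15, -0.01 and -0.08 over all probes, so the number was not taken as a pairing. The arrays numbered 3 do share the Cy5 setting of 50, and the sources do not say whether they come from another batch of worms. The block narrowed the standard error of cpg-1 from 0.36 to 0.11 and that of perm-2 from 0.40 to 0.22. With the replicate block 0 worm probes and 0 of the 10 genes were called, the smallest adjusted p of a member gene being 0.274 for cpg-3 (limma).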

Other observations

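Neuronal markers were lowest on the array where the eggshell genes were highest, but their medians differed in sign between the dye orientations. In the order of replicates 1 to 3 the medians of the 5 markers were -0.13, -0.19 and -0.65 with DZN in Cy5. With DZN in Cy3 they were 0.11, 0.10 and 0.05, so on DZN-Cy3 replicate 3 the sign was that of the eggshell genes. On DZN-Cy5 replicate 3 the syntaxin gene unc-64 was at -1.45 and the synaptotagmin gene snt-1 at -1.35. These genes are named after their values were seen. None passed the limma test over 6 arrays, and unc-64 had a fitted ratio of -0.38 ± 0.16 (adjusted p = 0.448). The 4 moult markers had a median of -0.33 and none was called. For noah-1 and noah-2, which code for proteins of the apical extracellular matrix, the ratios on DZN-Cy3 replicate 3 were -1.27 and -1.50, and on DZN-Cy3 replicate 1 they were 0.16 and 0.11. On DZN-Cy5 replicate 2 they were -1.02 and -0.82. The other moult markers, mlt-8 and mlt-10, were -0.43 and -0.80 on DZN-Cy3 replicate 3 and -0.04 and -0.08 on DZN-Cy3 replicate 1. The fitted ratio of mlt-8 was above 0, at 0.18.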
